A study of Homo sapiens with 4 samples.

Results

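The genes described here build the autophagosome and acidify the lysosome. They are 49 genes chosen by name, of which 17 encode the vacuolar proton ATPase (V-ATPase) with its accessory proteins and 32 encode the core autophagy machinery. Of these, 46 were analysed, 16 for the V-ATPase and 30 for autophagy, among 18567 genes in the table. All 46 reached the minimum level of 1 TPM (a length-adjusted share of the transcripts of a sample) in at least 2 samples, as did 16817 genes in all. ATP6V0A1, ULK2 and MAP1LC3A were not analysed here.

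Autophagy delivers cytoplasm and organelles to the lysosome. A kinase complex around ULK1 starts it, a lipid kinase complex marks the membrane, ATG9 and ATG2 proteins supply lipids, and conjugating enzymes attach proteins of the ATG8 family to the growing membrane, where cargo receptors bind them. The V-ATPase has a cytosolic V1 sector that burns ATP and a membrane V0 sector that carries protons, and the acid it makes is needed by the enzymes of the lysosome.

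Kasumi-1, a long-established cell line from acute myeloid leukemia (AML) that carries the RUNX1::RUNX1T1 fusion, was sequenced for RNA in 2 samples of a control group (NC) and 2 samples with a short hairpin RNA against ANP32B (sh-ANP32B). The study delivered its hairpins by lentivirus and selected the cells with puromycin. The labels give the NC samples no hairpin and no treatment, while the study's methods name a hairpin control, so it is not settled which applies to NC, and the labels do not say which of the ANP32B hairpins was used. Nothing says that the samples of a group came from separate cultures, so the p-values measure the spread between these samples, which may be technical.

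ANP32B itself, the target of the hairpin, stood at 383.8 and 392 TPM in NC, and in sh-ANP32B at 51.8 and 41.2 TPM, or 12.0% of the NC mean (log2 fold change -3.04, SE 0.15, limma adjusted p = 0.00516, n = 2 and 2). Of 6 genes looked for as markers of the line, the myeloid gene CD33 (58.5 to 70.1 TPM) and the leukocyte gene PTPRC (113.1 to 203.3 TPM) were present, RUNX1T1 lay between 15.6 and 31.2 TPM, KIT was low at 1.55 to 3.41 TPM, and CD34 and MPO were not analysed here. Transcripts of the mitochondrial genome took 13.0% and 13.1% of the TPM in NC but 11.4% and 8.43% in sh-ANP32B. With these transcripts left out and the rest rescaled, 0 of the 46 genes passed the test and their median log2 fold change was 0.19 in place of the 0.24 given below. Depth per sample is unknown because the deposited values are shares of a total, and no counting interval is given. As these are bulk samples, fewer cells with a transcript and less of the transcript per cell cannot be told apart.

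Across the 46 genes most levels were somewhat higher in sh-ANP32B, but no gene passed the test. Fold changes are given as differences of log2(TPM + 1), a scale that compresses the change of a weakly expressed gene. The fold change was above 0 in 38 genes (82.6%, beside 57.9% of all genes tested) and below 0 in 8. The former number was 33 under median-of-ratios scaling or quantile normalization, 34 with GC correction and 31 without sh-ANP32B replicate 1. In that order, the median over all genes was 0.0054, -0.0081, 0.044 and 0.074, below the 0.083 as reported. The share of all genes above 0 was not computed for these settings. The fold change had a median of 0.24 (0.15 after median-of-ratios scaling), against 0.08 (0.0054) over all genes tested, and ran from -0.41 (ATG5) to 0.95 (WIPI1). With limma and an adjusted p under 0.05, 0 genes were higher and 0 were lower, where 2.14% of all genes tested were called higher and 1.18% lower, and the smallest adjusted p was 0.0510. At an unadjusted p under 0.05, 10 genes (21.7%) were higher, against a background of 15.0%, and 0 were lower, against 8.72%. Both sh-ANP32B samples lay above both NC samples in 27 genes (58.7%, background 33.2%) and below both in 5 (background 21.4%), and the groups overlapped in 14.

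The count of genes called followed which group kept both of its samples, and the share over all genes did so too. It was 12 without sh-ANP32B replicate 1 (where 14.6% of all genes were called higher), 16 without sh-ANP32B replicate 2 (12.3%), 1 without NC replicate 2 (1.27%) and 0 without NC replicate 1 (1.45%), all higher. Each fit with a lone sample in a group assumed that it varied like the other group. Leaving out 1 sample moved the log2 fold change by over 1.5 times in 34 of the 46 genes. It stayed within that factor in ATP6V1B2, ATP6V1G1, TCIRG1, ATP6V0D1, ATG9A, ATG2A, WIPI1, ATG5, MAP1LC3B, GABARAP, GABARAPL1 and OPTN. Among the genes with larger differences, ATP6AP1 went from 0.79 to 0.52 without NC replicate 1, ATP6V0C from 0.41 to 0.22 and ULK1 from 0.28 to 0.10 without sh-ANP32B replicate 2, ATP6V1F from 0.31 to 0.12 without NC replicate 1, and ATG14 from 0.36 to 0.13, NBR1 from 0.35 to 0.16 and ATG12 from 0.29 to 0.08 without sh-ANP32B replicate 1. After correction of each sample for the GC content of the transcripts, 7 genes were called higher (15.2%, background 9.36%) and 0 lower (background 7.29%): ATG9A, WIPI1, GABARAP, GABARAPL1, OPTN, TCIRG1 and ATP6V1B2. The scaling of the samples also set the balance over all genes, with 360 called higher and 199 lower on the deposited scale but 236 higher and 284 lower after median-of-ratios scaling, under which 0 of the 46 genes were called.

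**Figure D1:**
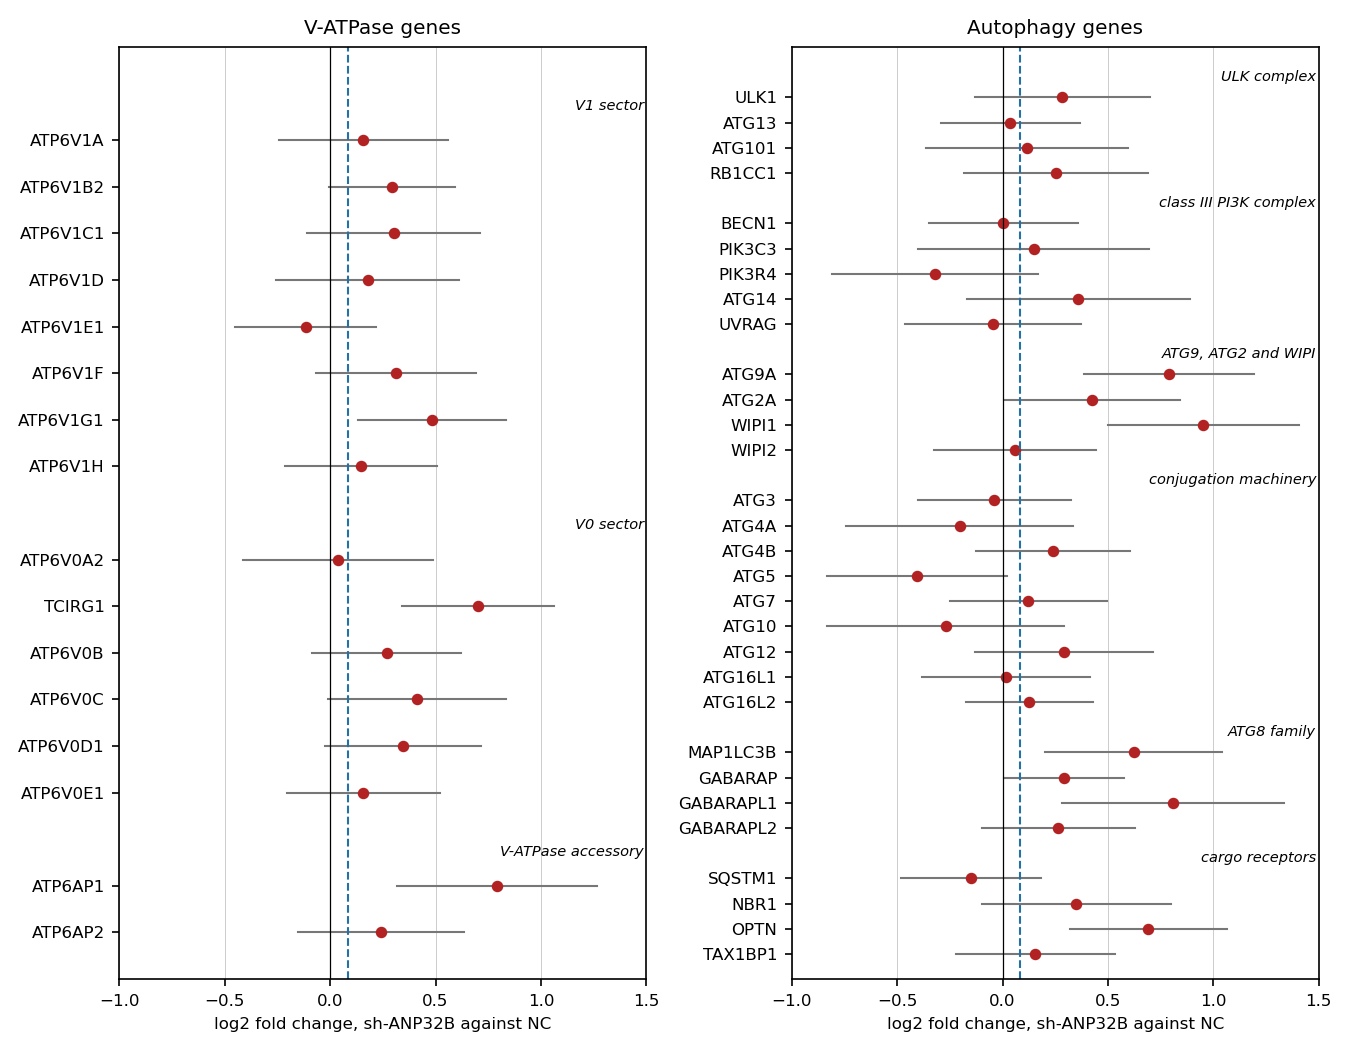
Log2 fold change of each gene, sh-ANP32B against NC, on the log2(TPM + 1) scale (n = 2 and 2), with points for the estimate and lines for limma's 95% confidence interval. V-ATPase genes are on the left, autophagy genes are on the right, and the dashed line is the median of all genes tested, 0.08. WIPI1 stands highest at 0.95 and ATG5 lowest at -0.41.

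The promoters of 5 of these genes share a short motif, shown here because it holds the core of the known recognition sequence of TFEB, a transcription factor that controls lysosome and autophagy genes and is described further on. RefSeq (GRCh38.p14) gave a window of 250 bases before to 50 bases after the start for 39 of the 46 genes. The E-box CACGTG stood in 5 of the 39 windows (12.8%), against 7.43% of 27305 promoters. The longer form CACGTGAC, which contains the E-box and was searched on both strands (GTCACGTG on the other), stood in the same 5 windows (12.8%), against 2.53% of all promoters. A match of letters is a description and not a binding site. The windows below end at or before the gene start, with 1 match of the longer form in capitals. In ATP6V1G1 a match in the other orientation overlaps it and runs on into the next bases, and ATG3 held a further match after its start that is not printed.
ATG14, chr14:55411831-55411873, minus strand: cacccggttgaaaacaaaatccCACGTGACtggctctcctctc
ATG3, chr3:112561963-112562004, minus strand: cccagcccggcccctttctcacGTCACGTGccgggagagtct
ATP6V0B, chr1:43974879-43974930, plus strand: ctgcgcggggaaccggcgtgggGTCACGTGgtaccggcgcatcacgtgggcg
ATP6V0D1, chr16:67481189-67481240, minus strand: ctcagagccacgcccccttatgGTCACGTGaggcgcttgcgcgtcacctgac
ATP6V1G1, chr9:114587687-114587738, plus strand: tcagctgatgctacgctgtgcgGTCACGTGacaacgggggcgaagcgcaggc

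Differences among the 5 genes were not tested, and limma's confidence intervals of their fold changes overlapped. The log2 fold change was 0.48 for ATP6V1G1, 0.36 for ATG14, 0.35 for ATP6V0D1, 0.27 for ATP6V0B and -0.04 for ATG3, and none had an adjusted p under 0.05.

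The V-ATPase genes were expressed at 14.3 to 563.3 TPM on average. Of the 16, 15 had a fold change above 0 (93.8%, beside 57.9% of all genes tested). The number was 14 under median-of-ratios scaling, quantile normalization or without mitochondrial transcripts, and 12 without sh-ANP32B replicate 1. In all of these settings the median over all genes was also lower than as reported. Summed over the 16 genes, the level was 1783.1 and 1900.0 TPM in NC, against 2388.1 and 2563.2 TPM in sh-ANP32B, a ratio of means of 1.34, and the groups did not overlap. In 12 genes (75.0%, background 33.2%) both sh-ANP32B samples were above both NC samples, in 0 they were below (background 21.4%), and in 4 the groups overlapped. The median log2 fold change was 0.28, and 0.22 after GC correction.

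The V1 sector, which hydrolyses ATP, had a median log2 fold change of 0.24 (0.22 after GC correction), beside 0.31 (0.19) for V0, and a summed level of 629.3 and 677.0 TPM in NC, against 797.8 and 745.4 TPM in sh-ANP32B (ratio of means 1.18). ATP6V1G1, a subunit of the peripheral stalk that holds V1 to the membrane, was at 83.6 and 85.3 TPM in NC, and in sh-ANP32B at 107.0 and 131.1 TPM. Both knockdown samples were above both controls, with a log2 fold change of 0.48 (SE 0.15, adjusted p = 0.117). ATP6V1F, a subunit of the central rotor, was at 124.9 and 163.4 TPM in NC, and in sh-ANP32B at 176.5 and 179.0 TPM. Its log2 fold change was 0.31 (SE 0.16, adjusted p = 0.289, and 0.318 after GC correction), and here the controls were farther apart than the knockdown samples. The B subunit gene ATP6V1B2, which pairs with the catalytic subunit, was at 140.3 and 145.3 TPM against 183.0 and 167.3 TPM (0.29, SE 0.13, adjusted p = 0.220, and 0.0404 after GC correction).

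The catalytic subunit gene ATP6V1A did not separate the groups, at 48.8 and 53.6 TPM in NC, against 64.6 and 50.7 TPM in sh-ANP32B. ATP6V1E1, the stalk partner of ATP6V1G1, was the only V-ATPase gene with a fold change below 0, at 111.1 and 112.1 TPM against 111.9 and 94.6 TPM (-0.12, adjusted p = 0.670). Without sh-ANP32B replicate 2 its fold change was 0.004. The remaining V1 genes, ATP6V1C1, ATP6V1D and ATP6V1H, had fold changes of 0.15 to 0.30.

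The V0 sector had a fold change above 0 in all 6 of its analysed genes, beside 57.9% of all genes tested. It was above 0 in 5 of them after median-of-ratios scaling or quantile normalization or without mitochondrial transcripts, where the median over all genes was lower too. Its summed level went from 927.0 and 944.5 TPM in NC to 1216.1 and 1455.7 TPM in sh-ANP32B (ratio of means 1.43), a sum of which TCIRG1 is the largest part. TCIRG1 (ENSG00000110719, chr11:68039025-68050895), the a3 subunit found in lysosomes of immune cells and in osteoclasts, was the most abundant of all 46 genes. It stood at 420.3 and 433.1 TPM in NC, and in sh-ANP32B at 613.1 and 786.9 TPM. The groups were well apart, with a ratio of means of 1.64 and a log2 fold change of 0.70 (SE 0.15, 95% interval 0.34 to 1.06, adjusted p = 0.0589, and 0.0206 after GC correction). The other a subunit analysed, ATP6V0A2, which serves the Golgi, was at 14.7 and 13.4 TPM in NC, and in sh-ANP32B at 15.9 and 13.1 TPM, and its groups overlapped. TCIRG1 was thus 28.7 and 32.3 times as abundant as ATP6V0A2 in NC and 38.7 and 60.2 times in sh-ANP32B.

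ATP6V0C, which forms most of the proton-carrying ring, was at 198.6 and 242.9 TPM in NC, and in sh-ANP32B at 255.2 and 335.2 TPM. Its log2 fold change was 0.41 (SE 0.18, adjusted p = 0.221, and 0.264 after GC correction). The other ring gene ATP6V0B was at 195.0 and 156.5 TPM against 205.3 and 215.7 TPM (0.27, adjusted p = 0.327, and 0.42 after GC correction). In both ring genes the groups did not overlap, but the controls lay farther from each other than the higher control from the lower knockdown sample. ATP6V0D1, which couples the rotor to the ring, was at 32.4 and 31.6 TPM in NC, and in sh-ANP32B at 44.4 and 37.7 TPM. Its log2 fold change was 0.35 (adjusted p = 0.237, and 0.466 after GC correction), and that of ATP6V0E1 was 0.16.

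Of the accessory proteins, ATP6AP1 (ENSG00000071553, chrX:154428633-154436516), needed for assembly of V0, showed the larger difference. It was at 104.5 and 153.6 TPM in NC, and in sh-ANP32B at 205.7 and 235.2 TPM, a ratio of means of 1.71 (log2 fold change 0.79, SE 0.20, adjusted p = 0.0794, and 0.0508 after GC correction). Both knockdown samples were above both controls although the controls themselves were far apart. ATP6AP2, which is also known as the prorenin receptor, was at 122.3 and 124.9 TPM in NC, and in sh-ANP32B at 168.5 and 127.0 TPM (0.24, adjusted p = 0.423), so that replicate 2 was barely above the controls.

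**Figure D2:**
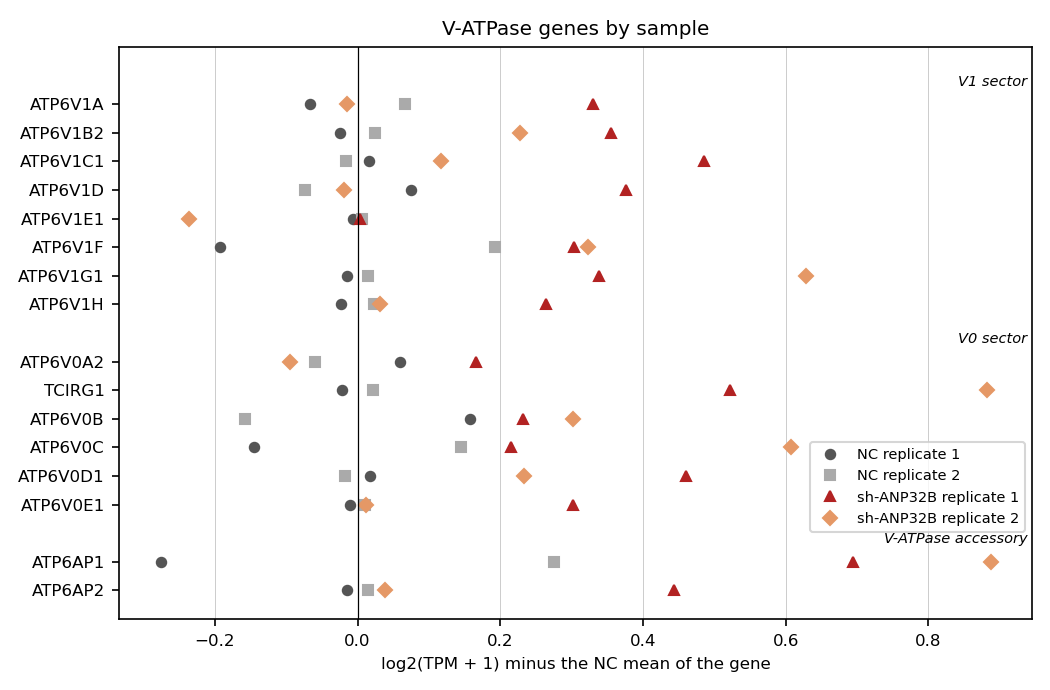
Level of each V-ATPase gene in each sample as log2(TPM + 1) minus the NC mean of that gene, with NC samples in grey and sh-ANP32B samples in red and orange, grouped by sector. TCIRG1 and ATP6AP1 lie farthest to the right in both sh-ANP32B samples, and ATP6V1E1 has 1 sh-ANP32B sample left of the controls.

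The autophagy genes were less uniform than the V-ATPase genes. Of 30 analysed, 15 had both sh-ANP32B samples above both NC samples (background 33.2%), 5 had them below (background 21.4%) and 10 overlapped. The fold change was above 0 in 23 (76.7%, beside 57.9% of all genes tested) and below 0 in 7. It was above 0 in 19 under median-of-ratios scaling, quantile normalization or GC correction. The median log2 fold change was 0.15, and 0.09 after GC correction. By role, the median was 0.61 in the lipid supply group and 0.46 in the ATG8 family. It was 0.25 in the cargo receptors, where OPTN stood highest (0.69), and 0.19 or less in the kinase complexes and the conjugating enzymes.

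Lipid supply and phosphoinositide binding had a median of 0.61 over 4 genes (0.43 after GC correction, beside 0.46 and 0.44 for the ATG8 family). WIPI1 (ENSG00000070540, chr17:68420948-68457513), which binds phosphatidylinositol 3-phosphate on the forming membrane, was at 14.4 and 17.8 TPM in NC, and in sh-ANP32B at 35.2 and 28.9 TPM. The ratio of means was 1.99, the groups were clearly apart, and the log2 fold change was 0.95 (SE 0.19, 95% interval 0.50 to 1.41, adjusted p = 0.0510, and 0.0144 after GC correction). Its relative WIPI2, the form that recruits the conjugation machinery, was at 96.3 and 82.9 TPM in NC, and in sh-ANP32B at 83.7 and 103.3 TPM, with overlapping groups and a fold change of 0.06 that turned negative under other scalings. The ratio of WIPI2 to WIPI1 was 6.69 and 4.66 in NC and 2.38 and 3.57 in sh-ANP32B.

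ATG9A (ENSG00000198925, chr2:219219380-219229717), the lipid scramblase of the vesicles that seed the autophagosome, was at 35.5 and 32.01 TPM in NC, and in sh-ANP32B at 52.5 and 66.3 TPM. The knockdown samples were well above the controls, with a ratio of means of 1.76 and a log2 fold change of 0.79 (SE 0.17, adjusted p = 0.0581, and 0.0114 after GC correction). ATG2A, which transfers lipids into the membrane, was at 15.7 and 13.5 TPM against 19.6 and 20.2 TPM (0.42, SE 0.17, adjusted p = 0.204, and 0.415 after GC correction).

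All 4 analysed genes of the ATG8 family, the proteins coupled to the membrane, had both sh-ANP32B samples above both NC samples (background 33.2%). Their summed level was 306.4 and 313.6 TPM in NC, against 412.2 and 381.9 TPM in sh-ANP32B. MAP1LC3B (ENSG00000140941, chr16:87383953-87404779), the LC3 form used as the usual marker of autophagosomes, was at 42.0 and 45.8 TPM in NC, and in sh-ANP32B at 78.3 and 59.0 TPM (ratio of means 1.57, log2 fold change 0.62, SE 0.18, adjusted p = 0.101). Replicate 1 was the higher of the knockdown samples and both were above the controls. GABARAPL1 (ENSG00000139112, chr12:10212458-10223128) was the least abundant, at 4.88 and 5.10 TPM in NC, against 8.49 and 10.6 TPM in sh-ANP32B (ratio of means 1.91, log2 fold change 0.81, SE 0.22, adjusted p = 0.0939, and 0.0340 after GC correction).

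GABARAP, the most abundant of the family, had nearly equal controls at 175.0 and 175.3 TPM and was at 209.8 and 219.6 TPM in sh-ANP32B (0.29, SE 0.12, adjusted p = 0.203, and 0.0482 after GC correction). GABARAPL2 was at 84.5 and 87.4 TPM against 115.5 and 92.7 TPM (0.27, adjusted p = 0.345). GABARAP made up 57.1% and 55.9% of the TPM of the 4 genes in NC and 50.9% and 57.5% in sh-ANP32B, so its share overlapped between the groups. The share of MAP1LC3B was 13.7% and 14.6% in NC and 19.0% and 15.5% in sh-ANP32B.

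Among the cargo receptors OPTN (ENSG00000123240, chr10:13099449-13138308), which delivers ubiquitin-marked mitochondria and bacteria, stood apart. It was at 59.6 and 68.0 TPM in NC, and in sh-ANP32B at 113.6 and 94.1 TPM, a ratio of means of 1.63 with no overlap (log2 fold change 0.69, SE 0.16, adjusted p = 0.0629, and 0.0101 after GC correction). SQSTM1, the p62 receptor for ubiquitin-marked cargo, had the opposite sign, at 147.8 and 151.1 TPM in NC, against 123.1 and 147.1 TPM in sh-ANP32B (-0.15, SE 0.14, adjusted p = 0.567). Replicate 2 of the knockdown was only just below the controls. NBR1, a receptor related in build to SQSTM1, was at 35.9 and 30.2 TPM against 48.3 and 36.9 TPM (0.35, SE 0.19, adjusted p = 0.313), and the groups of TAX1BP1 overlapped.

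**Figure D3:**
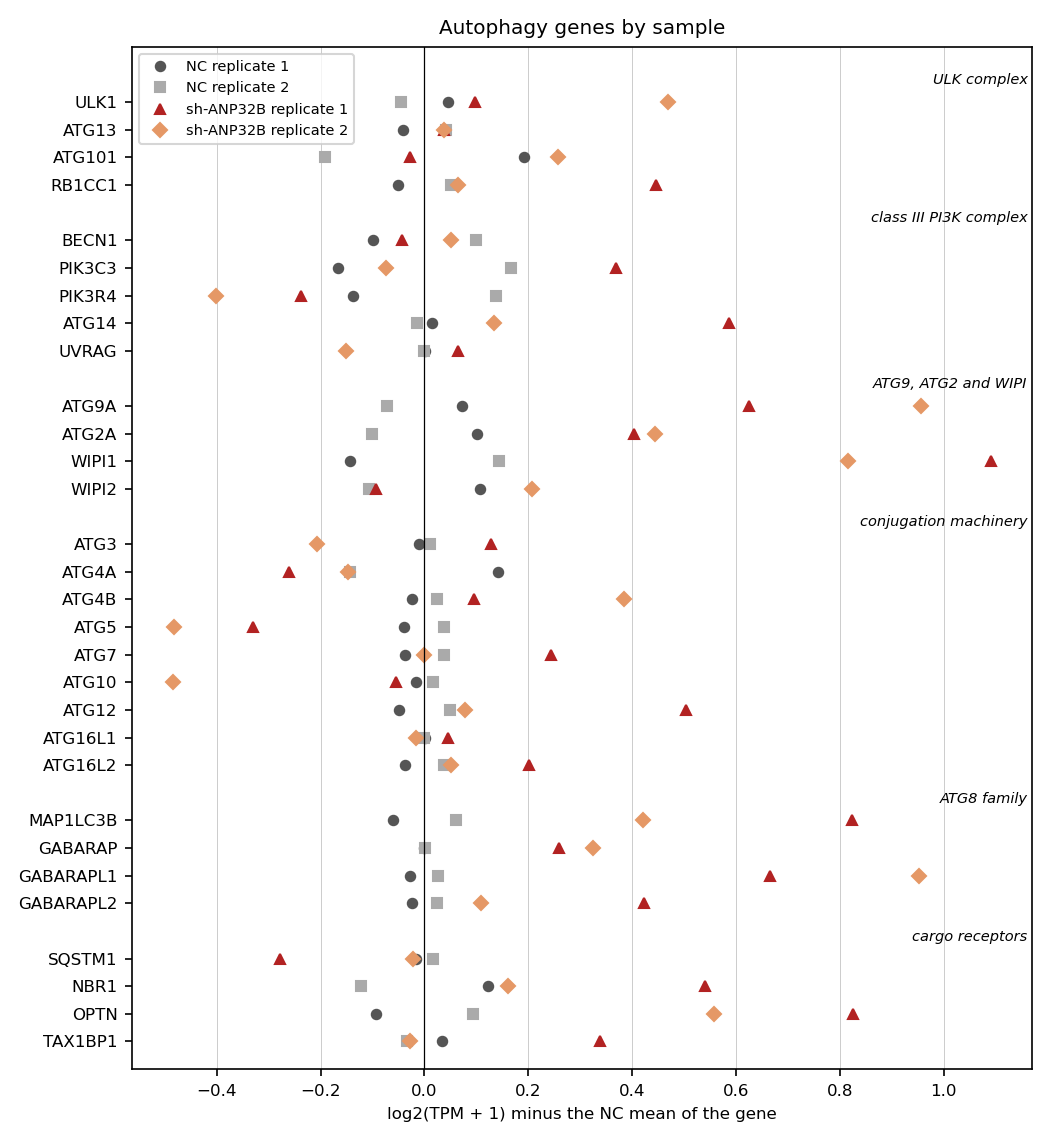
Level of each autophagy gene in each sample as log2(TPM + 1) minus the NC mean of that gene, grouped by role, with NC samples in grey and sh-ANP32B samples in red and orange. WIPI1, ATG9A, MAP1LC3B, GABARAPL1 and OPTN lie to the right in both sh-ANP32B samples, while ATG5 and PIK3R4 lie to the left in both.

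The ULK complex, which starts autophagy, had a median log2 fold change of 0.19 over 4 genes, and of 0.035 after GC correction. ULK1, its kinase, was at 37.8 and 35.5 TPM in NC, and in sh-ANP32B at 39.3 and 51.1 TPM, where replicate 1 lay close to the controls. Its log2 fold change was 0.28 (SE 0.17, adjusted p = 0.376, and 0.59 after GC correction). RB1CC1, the FIP200 scaffold, was at 26.3 and 28.3 TPM against 37.6 and 28.6 TPM (0.26, adjusted p = 0.446), where replicate 2 lay close to the controls. ATG13, the adaptor that joins them, was at 46.7 and 49.5 TPM in NC, against 49.3 and 49.4 TPM in sh-ANP32B, with a difference of 0.04 and an interval of -0.29 to 0.37. The groups of ATG101 overlapped too.

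The class III phosphoinositide 3-kinase complex, which marks the membrane, had a median of 0.0034. BECN1, its beclin 1 subunit, was at 46.0 and 52.9 TPM in NC, and in sh-ANP32B at 47.8 and 51.1 TPM, and the interval of its fold change was -0.35 to 0.36. ATG14, the subunit that directs the complex to autophagy, was at 9.50 and 9.29 TPM in NC, and in sh-ANP32B at 14.6 and 10.4 TPM (0.36, SE 0.22, adjusted p = 0.378). PIK3R4, its regulatory subunit, was at 10.8 and 13.3 TPM in NC, and in sh-ANP32B at 10.02 and 8.85 TPM (-0.32, SE 0.20, adjusted p = 0.391). Both knockdown samples were above the controls for ATG14 and below them for PIK3R4, and the groups of PIK3C3, the kinase, and of UVRAG overlapped.

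The 9 genes of the conjugation machinery had a median of 0.015. In 3 (33.3%, background 33.2%) both knockdown samples were above both controls, in 3 they were below (background 21.4%), and in 3 the groups overlapped. ATG5, a part of the enzyme that couples ATG8 proteins to lipid, had the lowest fold change of all 46 genes, at 15.8 and 16.7 TPM in NC, against 12.7 and 11.4 TPM in sh-ANP32B (-0.41, SE 0.18, 95% interval -0.83 to 0.02, adjusted p = 0.229). ATG12, the protein joined to ATG5, was at 59.9 and 64.1 TPM against 88.3 and 65.4 TPM (0.29, SE 0.18, adjusted p = 0.370). For ATG12 replicate 2 was next to the controls, whereas for ATG5 both knockdown samples were below them. ATG16L2, the most abundant of these genes, was at 184.2 and 194.1 TPM in NC, against 217.5 and 196.0 TPM in sh-ANP32B (0.13, adjusted p = 0.599).

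ATG16L1, the form that works with ATG5 and ATG12 in autophagy, was almost level at 16.5 and 16.5 TPM in NC, against 17.0 and 16.3 TPM in sh-ANP32B, and ATG16L2 was 11.2 and 11.8 times as abundant in NC and 12.8 and 12.1 times in sh-ANP32B. The protease ATG4B had both knockdown samples above the controls (0.24), while ATG4A (-0.20) and the ATG12-conjugating enzyme ATG10 (-0.27) had them below. ATG3 and ATG7, which activate and transfer the ATG8 proteins, had overlapping groups.

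**Figure D4:**
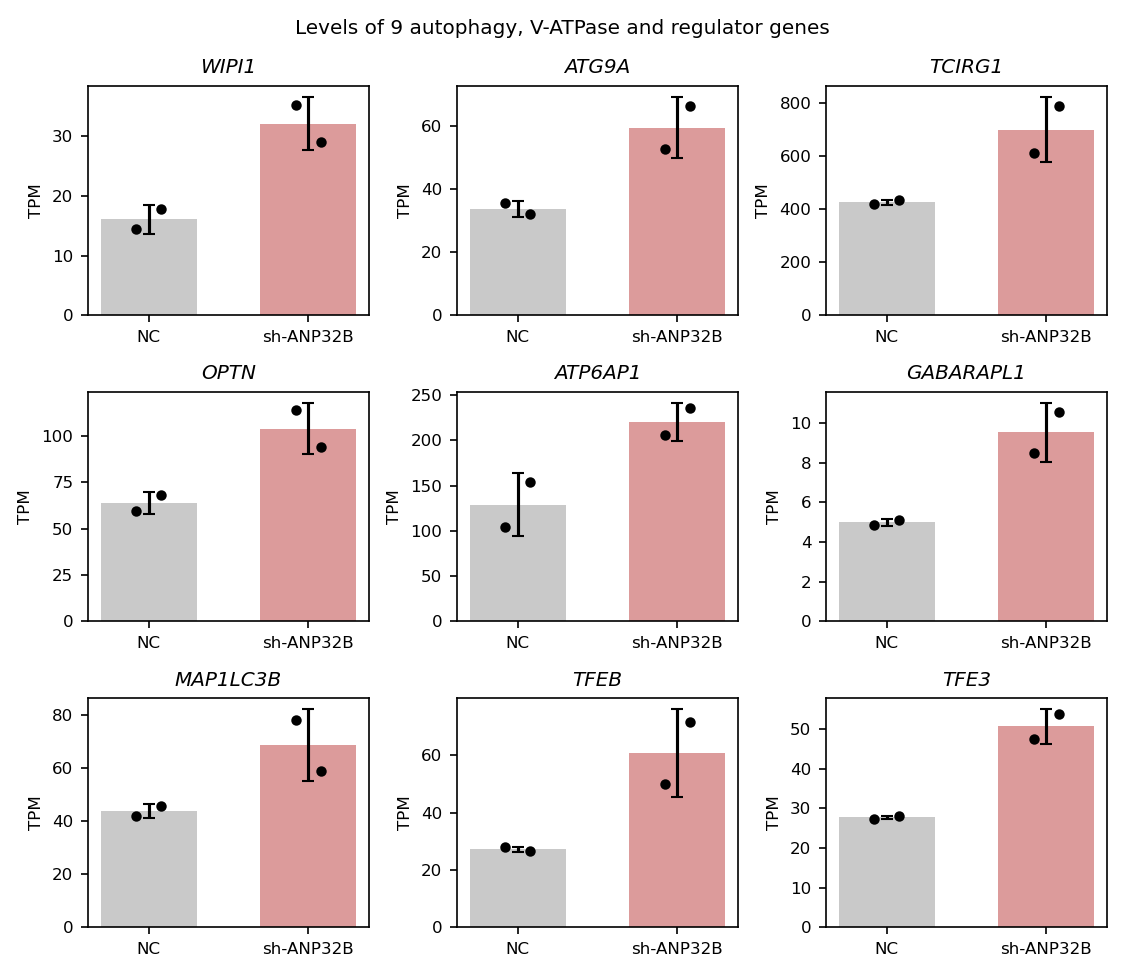
TPM of the 7 V-ATPase and autophagy genes with the largest fold changes, and of the regulators TFEB and TFE3, in NC and sh-ANP32B. Bars are means, points are the 2 samples of each group, and error bars are 1 SD. No sh-ANP32B sample falls to the level of an NC sample in these genes, which were chosen by these same values, so their separation is no further result. WIPI1 goes from 14.4 and 17.8 TPM to 35.2 and 28.9 TPM.

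The knockdown samples differed from each other in a way that followed base composition. Among the 29 genes whose longest transcript had a GC content under 50%, sh-ANP32B replicate 2 was below replicate 1 in 24 and above it in 5, with a median log2 difference of -0.28. Among the 17 genes of 50% GC or more it was above in 13 and below in 4, with a median of 0.19. Over the 46 genes the Pearson r of GC content with the difference between the knockdown samples was 0.67, and with that between the controls it was -0.13. This is a description across genes that share the same libraries, so no p is given. GC content and the fold change had an r of 0.30. With GC correction the log2 fold change moved by over 1.5 times in 15 of the 46 genes. Among those it went from 0.41 to 0.23 in ATP6V0C, from 0.35 to 0.21 in ATP6V0D1, from 0.27 to 0.15 in ATP6V0B, from 0.42 to 0.23 in ATG2A, from 0.28 to 0.083 in ULK1, from 0.24 to 0.078 in ATG4B and from -0.15 to -0.27 in SQSTM1. In TCIRG1 it went from 0.70 to 0.49 and in ATG9A from 0.79 to 0.64, while WIPI1 (0.95), GABARAPL1 (0.81), OPTN (0.71), MAP1LC3B (0.59), ATP6V1G1 (0.51) and ATG5 (-0.38) stayed close to their uncorrected values.

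**Figure D5:**
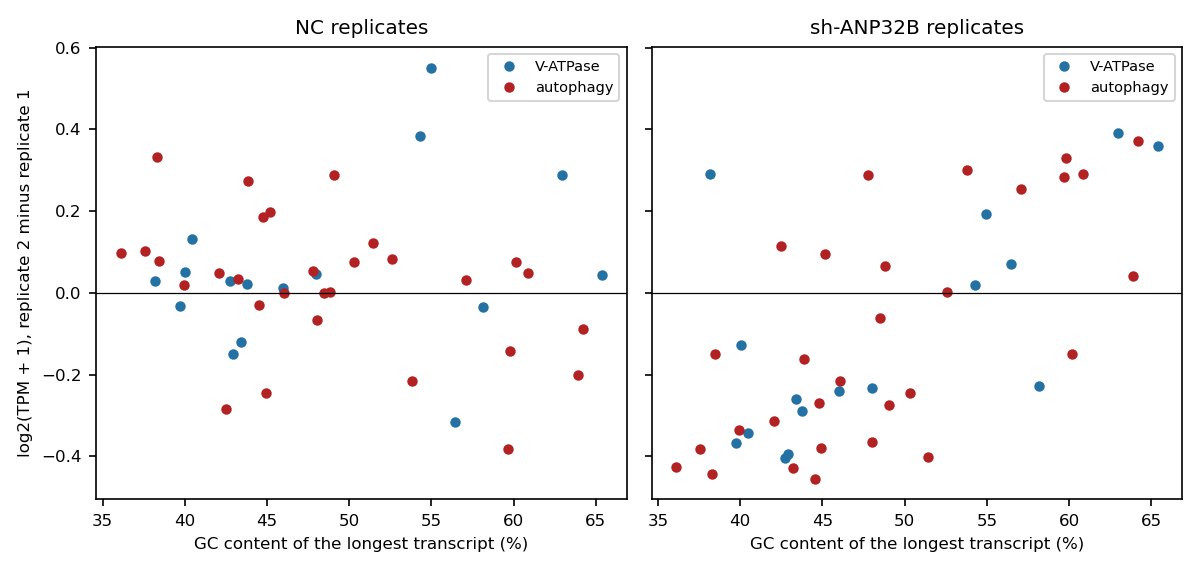
Log2(TPM + 1) of replicate 2 minus replicate 1 for each of the 46 genes against the GC content of its longest transcript, for NC on the left and sh-ANP32B on the right, with V-ATPase genes in blue and autophagy genes in red. In sh-ANP32B the points climb from left to right (r = 0.67), and in NC they do not (r = -0.13).

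Some of these levels may include reads of other genes. Exons of 16 of the 46 genes share bases with another gene at 1 TPM or more, among them WIPI1 with ARSG, MAP1LC3B with FBXO31, BECN1 with PSME3, ATG12 with AP3S1, ATG7 with VGLL4 and ATG10 with RPS23, all on the opposite strand. TCIRG1 shares exon bases with ENSG00000255031, a long non-coding RNA on the same strand that reached 37.2 TPM. Processed copies are known by name for 10 of the genes, among them ATP6V1G1, ATP6V0C and MAP1LC3B. Whether the authors' counting used strand is not given in the sources used here, so these levels are uncertain.

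The genes that act around this machinery were described from lists in the same way. In 68 tested genes of V-ATPase paralogs and assembly, mTORC1, AMPK and TFEB control, other autophagosome formation, other cargo receptors and fusion with the lysosome, 2 rose (2.94%, beside 2.14% of all genes) and 0 fell, and the median log2 fold change was 0.25. The share that rose was thus close to that of all genes. Both that rose are transcription factors of lysosome and autophagy genes, while MITF, from the same list, was not called (log2 fold change 0.52, adjusted p = 0.226). TFEB was at 27.8 and 26.5 TPM in NC, and in sh-ANP32B at 49.8 and 71.6 TPM (ratio of means 2.23, log2 fold change 1.11, SE 0.20, adjusted p = 0.0440), and TFE3 was at 27.5 and 28.0 TPM in NC, and in sh-ANP32B at 47.6 and 53.8 TPM (ratio of means 1.83, log2 fold change 0.84, SE 0.15, adjusted p = 0.0440). Over 10 other settings the adjusted p ran from 0.000219 to 0.121 for TFEB, with 8 under 0.05, and from 0.00933 to 0.119 for TFE3, with 7 under 0.05, and median-of-ratios scaling left neither call. TFEB also lost its call without NC replicate 2, where its log2 fold change was 1.07. TFE3 lost its call without NC replicate 1 (0.83) or 2 (0.86). In those fits the spread came from the sh-ANP32B pair alone. VMA21, which assembles V0 in the endoplasmic reticulum, had the lowest fold change of the 68, at 41.8 and 40.8 TPM against 29.0 and 24.4 TPM (-0.62, adjusted p = 0.0819, and 0.0152 after GC correction), and was named after its values were seen.

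The enzymes and membrane proteins of the lysosome, where the V-ATPase works, were described beside these genes. Of 29 tested lysosomal genes 7 rose (24.1%, beside 2.14% of all genes) and 0 fell, with a median log2 fold change of 0.50 beside 0.28 for the V-ATPase and 0.15 for autophagy genes. The difference between the lists was not tested. The count was 2 without NC replicate 1 and 1 without NC replicate 2, where 1.45% and 1.27% of all genes were called higher, and 17 without sh-ANP32B replicate 1 or 2, where 14.6% and 12.3% were. The 4 largest of the 7 were GAA (1.16), GRN (1.00), TPP1 (0.97) and CTSD (0.95), with adjusted p between 0.0323 and 0.0448. CTSD lost its call under median-of-ratios scaling (limma adjusted p = 0.0601). It also lost it without NC replicate 1 (log2 fold change 1.03) or 2 (0.87). TPP1 lost its call without NC replicate 1 (0.96) or 2 (0.98), and GRN without NC replicate 2 (0.93). In fits without an NC sample the spread came from the sh-ANP32B pair alone. The fold change of WIPI1, 0.95, was as large as that of CTSD, but its adjusted p of 0.0510 was over the threshold.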

How the data were processed

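Libraries were made from Trizol RNA with a TruSeq kit. The authors aligned the reads with HISAT2 2.0.5 to hg38, per the submitters' processing notes, and deposited TPM, which divide the signal of a gene by transcript length and by the sample's total. The program that made the TPM, its annotation and any filter are not given in the sources used here. The 4 columns were matched to samples by name, and 0 further columns held sample values. Symbols, positions and GC content came from GENCODE 44 (16986 of 18567 IDs matched), and promoter windows from RefSeq.

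The 16817 genes with 1 TPM or more in 2 or more samples were converted to log2(TPM + 1) and compared in all 4 samples by limma 3.58.1 with an abundance trend (R 4.3.3), two-sided, with Benjamini-Hochberg adjustment over all genes tested. GC content was corrected by loess in each sample (span 0.3, 15427 genes). Figures were drawn with matplotlib 3.10.9 in Python 3.11.15 and tables with pandas 2.3.3 and numpy 2.4.6. No exact permutation test was run, since with 2 samples a group its smallest p is 0.333. The fit was tested on simulated data.

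The members and lists were chosen with earlier results of these data known. Sample values are given for the 2 members of each role group with the largest absolute fold change, the member of highest level in each group, any member past the threshold, and up to 4 genes past it in each other list and direction. Further members are given to account for all of them. Alternatives covered the pseudocount, the filter, scaling, mitochondrial transcripts, GC content, the replicate number as a block, the trend and each sample left out. A list of markers of other cell types is not reported here.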

Additional observations from a re-analysis of the deposited data

How the results depend on the processing

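In the fit as reported 0 V-ATPase and 0 autophagy genes were called higher. The counts were 1 and 3 with at least 1 TPM required in every sample (3.55% of all genes called higher), 2 and 5 with GC correction (9.36%), 2 and 3 with a replicate block (5.84%), and 2 and 4 with a replicate block and GC correction (7.32%), beside 2.14% as reported. Leaving out single samples gave 0 to 7 V-ATPase genes and 0 to 9 autophagy genes. No setting called any gene lower. Without the trend limma called 0 of all genes, ANP32B included (adjusted p = 0.0929), and the smallest adjusted p of the 46 was 0.121. The median fold change of 0.28 for V-ATPase genes was 0.19 under median-of-ratios scaling and 0.17 to 0.33 with samples left out, and that of 0.15 for autophagy genes was 0.066 and 0.071 to 0.22. Under median-of-ratios scaling or quantile normalization 5 genes turned negative (ATG13, ATG16L1, ATP6V0A2, BECN1 and WIPI2), and with GC correction 4 did (ATG101, ATG13, ATG16L2 and WIPI2). With a sample left out 3 to 7 did. Without sh-ANP32B replicate 2, 3 genes turned positive (ATG3, ATP6V1E1 and UVRAG). Values follow for the 4 genes chosen by the naming rule that turned negative in some setting. ATG13 was at -0.050 under median-of-ratios scaling, -0.021 under quantile normalization, -0.011 without mitochondrial transcripts, -0.013 with GC correction, with or without the block, and -0.0042 to 0.079 with samples left out. BECN1 was at -0.084, -0.061 and -0.045 under those scalings and without mitochondrial transcripts, and at -0.095 to 0.102 with samples left out. WIPI2 was at -0.031 and -0.0165 under those scalings, -0.011 with GC correction, with or without the block, and -0.093 to 0.207 with samples left out. ATG16L2 was at -0.030 with GC correction, with or without the block. Over all genes tested the median was 0.083 as reported, 0.0054 under median-of-ratios scaling and -0.0081 under quantile normalization. It was 0.043 without mitochondrial transcripts and 0.044 with GC correction. The cause of the sign turns was not tested. The replicate numbers are shared by the groups, but nothing says that equal numbers were handled together, and deviations of same-numbered samples correlated at -0.0925 (Pearson) and -0.168 (Spearman) over 16817 genes. A crossed block, chosen after seeing the data, called 2 V-ATPase and 4 autophagy genes higher (7.56% of all genes). The unknown depth limits what can be said of low genes such as GABARAPL1, ATG4A and ATG10.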
